A study of Homo sapiens with 24 samples.

Results

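The experiment captured RNA lying near the stress granule protein TIA1 in arsenite-treated HEK293T cells, a line derived from human embryonic kidney, and sequenced it beside the total RNA of the same culture type. The libraries were chosen by their labels: 2 captures of cells with TIA1-miniSOG that received the probe and light were set against 2 inputs of the same line, and 2 captures without probe were read to show background binding. These 6 libraries are part of 24, and the other 18 come from further fusions or conditions. Labelled captures came from TIA1-miniSOG cells given 0.5 mM sodium arsenite for 1 hr in all, 10 mM propargylamine (PA) for 5 min and blue light at 24 mW per cm2 for 15 min. No-probe captures came from TIA1-miniSOG cells treated with arsenite and light in the same way with PA left out. Inputs were RNA from labelled, arsenite-treated TIA1-miniSOG cells that was not enriched. All 3 groups thus carried the stably expressed TIA1 fusion and had arsenite, and there was no unstressed TIA1 group and no line without the fusion. For comparison between baits, captures and inputs of G3BP2-miniSOG and miniSOG-DDX6 cells under arsenite were used, 4 libraries for each. Because every bait was carried by a separate line, an effect of the bait cannot be told apart from one of the line. The labels do not say that the samples of a group came from separate cultures. The p-values rest on the spread within groups, estimated over all 24 libraries in 1 model, and this spread may be technical.

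TIA1 is an RNA-binding protein with 3 RNA recognition motifs that binds U-rich and AU-rich stretches, many of them in introns and in the 3′ untranslated regions (3′UTRs) of mRNAs. It takes part in splice site choice and represses the translation of bound mRNAs. When arsenite blocks translation initiation, TIA1 gathers with stalled mRNAs in stress granules, cytoplasmic bodies without a membrane, while a share of it remains in the nucleus. MiniSOG is a small flavin-binding protein that produces singlet oxygen under blue light. The oxygen oxidises guanine bases nearby, PA reacts with the oxidised base, and a biotin attached to its alkyne lets streptavidin pull the RNA down. A capture therefore reads nearness to the fusion and guanines that can be reached, not binding.

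The letters of the 3′UTRs are shown by 12 short stretches from mRNAs named below as highest and lowest, since the results below turn on U share. Each is the 30 bases of the gene's 3′UTR with the most T, on the transcript strand, 5′ to 3′, from GENCODE 29 transcripts on GRCh38. Capitals mark runs of 5 or more T (U in the RNA). The first 6 lines are the 6 mRNAs with the highest capture over input, by the rule given with their values.
POLR2M (chr15:57715309-57715338, plus strand): TTTTTTTTgttggtttgtttgtttggtttt
DCK (chr4:71029536-71029565, plus strand): TTTTTgaccagtttcttttcttttgTTTTT
C4orf46 (chr4:158668890-158668919, minus strand): taTTTTTTgtacttgtttgaTTTTTTTTTT
TSNAX (chr1:231565860-231565889, plus strand): ttgctttctccatttaTTTTTTgTTTTTTT
STARD4 (chr5:111498798-111498827, minus strand): tgTTTTTTgcttttgTTTTTatttaTTTTT
NEK7 (chr1:198320156-198320185, plus strand): TTTTTTgttttgttttaataTTTTTgatat

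The next 6 lines come from mRNAs among the 12 with the lowest capture over input.
FTL (chr19:48966819-48966848, plus strand): gcagctttcttaactatcctaacaagcctt
C9orf16 (chr9:128163755-128163784, plus strand): ttcctgcctgggcctccccttggcctacct
COX6B1 (chr19:35658657-35658686, plus strand): atctccctttcctctgtcctccatccttct
TECR (chr19:14565886-14565915, plus strand): tgaggctcagcccctcaacccggtggcatt
RPL41 (chr12:56117825-56117854, plus strand): ttaaatcatcttgtctattatgTTTTTTat
PGLS (chr19:17521139-17521168, plus strand): tgctggccgccactctccgggctctccttt

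The upper 6 stretches held 21 to 24 T, while the lower 6 held 6 to 18. All 12 highest mRNAs lay between 20 and 24, and the 9 of the 12 lowest with a 3′UTR of at least 100 bases between 6 and 26. A longer 3′UTR holds more windows from which the richest is taken, and the 3′UTRs shown were 1536 to 3853 bases long in the upper 6 and 107 to 419 in the lower 6. Over the 3′UTRs of all tested mRNAs the richest stretch had a median of 19 T, against 21 for mRNAs that rose and 15 for mRNAs that fell. The motif TTTTT, searched on the transcript strand with overlaps allowed, is common: 84.2% of 3′UTRs held it, as did 9.72% of all windows of 30 bases. A match is a description of the letters and not a TIA1 site.

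Depth was 5138758 and 4219278 gene-assigned counts in the labelled captures, 2478099 and 2757634 in the no-probe captures, and 2685287 and 2511043 in the inputs. Mitochondrial genes held 6.60% and 8.48% of counts in labelled captures, 27.8% and 30.2% in no-probe captures and 31.6% and 31.1% in inputs, so the make-up of the labelled captures stood apart from that of both other groups. Levels are given as CPM (reads per 1e6 counts, with library sizes adjusted by edgeR's TMM factors), and differences as log2 fold changes with their SE from edgeR's quasi-likelihood test, called at a Benjamini-Hochberg adjusted p under 0.05 over 14360 genes. The scaling sets the level that counts as no change. With total counts in its place the median of all genes shifted up by 0.65 on the log2 scale, and the calls became 6337 higher and 529 lower. Every direction below is relative to the TMM scaling. The TIA1 gene itself, which in this line includes any reads of the fusion transgene, had 685 and 670 CPM in labelled captures, 305 and 355 CPM in no-probe captures and 355 and 356 CPM in inputs. Its captures lay above both other groups, with a log2 difference of 0.93 ± 0.17 to input (adjusted p = 6.8e-05, edgeR). Of the 5 HEK293T markers all were detected, and their summed level was 254 and 255 CPM in labelled captures, 226 and 247 CPM in no-probe captures and 216 and 259 CPM in inputs. Of 11 markers of blood, liver, connective tissue, endothelium, epithelium, muscle and glia, 3 passed the filter on low counts and none was called against inputs, while COL1A1 was called lower than in no-probe captures (log2 -0.94, adjusted p = 0.013, edgeR). PTPRC, CD3E, HBB, PECAM1, KRT5 and MYH7 were at 0 in all 6 libraries, and the 11 summed to 12.5 and 16.7 CPM in labelled captures, 29.8 and 20.3 CPM in no-probe captures and 19.8 and 18.8 CPM in inputs. COL1A1 held most of each sum, with 8.9 and 12.2 CPM in labelled captures, 23.2 and 17.2 CPM in no-probe captures and 14.5 and 14.4 CPM in inputs. In bulk libraries of this kind, fewer cells holding an RNA and less of it per cell cannot be told apart.

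In labelled captures 2789 genes were higher than in inputs, 19.4% of those tested, and 2349 were lower, 16.4%. Among the 12326 nuclear protein-coding genes the shares were 22.1% higher and 16.4% lower. Against no-probe captures 3406 genes were higher and 3114 lower, 23.7% and 21.7%. Both comparisons share the labelled captures, and 2545 genes (17.7%) were higher and 2100 (14.6%) lower in both. The no-probe captures were close to the inputs, with 2 genes higher, 0.0139%, and 0 lower by edgeR, while 984 had an unadjusted p under 0.05 and DESeq2 called 1. Both called genes are small nuclear RNA pseudogenes, whose reads cannot be told from those of near-identical copies. RNU1-27P had 29.8 and 27.8 CPM in no-probe captures and 0.0 and 0.5 CPM in inputs, and RNU6-36P had 28.1 and 21.8 CPM in no-probe captures and 0.4 and 1.0 CPM in inputs. Without 1 of the 6 libraries the labelled captures had 1948 to 2869 genes higher and 1319 to 2132 lower than inputs, and the lower count was 1320 without capture 1, 1539 without input 1 and 1319 without input 2. Without any 1 of the inputs or no-probe captures, 0 genes were called between these groups.

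The mRNAs that rose most under the rule given next code for proteins of unrelated roles. The named mRNAs are the 12 highest and 12 lowest log2 fold changes among called nuclear protein-coding genes whose labelled captures lay on one side of both inputs and both no-probe captures, with a mean of at least 20 CPM over captures and inputs. In all, 2346 mRNAs met this rule above and 1405 below. Among all called nuclear protein-coding genes, without the rule on separation and level, 1025 higher and 826 lower were past a log2 difference of 1. Past 2 there were 32 higher and 30 lower, so the named mRNAs are not the most changed of all called mRNAs. POLR2M, a subunit of a form of RNA polymerase II, had 75 and 57.8 CPM in labelled captures, 12.7 and 7.6 CPM in no-probe captures and 15.9 and 6.4 CPM in inputs. The inputs of POLR2M differed from each other by a larger ratio than its captures did, and its log2 difference of 2.55 ± 0.27 became 3.39 without input 1. DCK, deoxycytidine kinase of nucleoside salvage, had 81.8 and 66.2 CPM in labelled captures, 14.3 and 9.6 CPM in no-probe captures and 14.5 and 16.4 CPM in inputs. C4orf46 had 127.5 and 99.5 CPM in labelled captures, 17.1 and 21.3 CPM in no-probe captures and 22.5 and 25.3 CPM in inputs. DCK and C4orf46 rose by log2 differences of 2.26 ± 0.23 and 2.25 ± 0.24, and the captures of each were several times every other library.

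TSNAX, translin-associated factor X of the C3PO nuclease that removes the passenger strand of small RNAs, had 165.2 and 136.8 CPM in labelled captures, 23.7 and 34.4 CPM in no-probe captures and 32.6 and 31.2 CPM in inputs. STARD4, a carrier of sterols between membranes, had 34.1 and 31.7 CPM in labelled captures, 14.3 and 12.7 CPM in no-probe captures and 9.3 and 5.0 CPM in inputs. NEK7, a kinase of mitosis and of the NLRP3 inflammasome, had 134.5 and 118.3 CPM in labelled captures, 18.8 and 15.2 CPM in no-probe captures and 28.7 and 29.3 CPM in inputs. The no-probe captures overlapped the inputs for TSNAX, lay under them for NEK7 and lay above them for STARD4. The labelled captures of all 3 lay above both groups, as the naming rule requires. The log2 differences to input were 2.24 ± 0.20 for TSNAX, 2.19 ± 0.29 for STARD4 and 2.13 ± 0.19 for NEK7 (adjusted p 3.2e-09, 9.8e-07 and 5.2e-09, edgeR). The remaining 6 of the 12 lay between 1.94 and 2.00. They are FZD6, a Wnt receptor, SPIN4, a reader of histone methylation, SLC25A24, an ATP-Mg and phosphate carrier of mitochondria, PCMTD2, MIER3, a corepressor, and MORC3, a nuclear ATPase. MIER3 had 108.1 and 100.6 CPM in labelled captures, 24.8 and 25.8 CPM in no-probe captures and 23.8 and 30.7 CPM in inputs. The spans of all 12 overlap another annotated gene, as those of 4 of the 12 lowest do (PGLS, RPL38, RPS29 and TECR). Spans were taken whole, with introns and on either strand, and the share among all tested genes was not taken. The library kit keeps no strand, so reads in the shared stretches cannot be told apart.

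The 12 lowest mRNAs under the same rule included those of 5 ribosomal proteins. RPS27, a protein of the small ribosomal subunit, had 67.5 and 87.3 CPM in labelled captures, 325.4 and 368.6 CPM in no-probe captures and 337.7 and 414.0 CPM in inputs. FTL, the light chain of the iron store ferritin, had 32.3 and 42.4 CPM in labelled captures, 156.1 and 179.7 CPM in no-probe captures and 148.6 and 185.9 CPM in inputs. COX6B1, a subunit of cytochrome c oxidase, had 10.2 and 19.3 CPM in labelled captures, 64.5 and 67.3 CPM in no-probe captures and 55.5 and 69.9 CPM in inputs. In each of these 3 the labelled captures lay under all other libraries, as the naming rule requires, and the no-probe captures overlapped the inputs. The log2 differences to input were -2.28 ± 0.24 for RPS27, -2.16 ± 0.22 for FTL and -2.11 ± 0.26 for COX6B1 (adjusted p 2.5e-08, 1.5e-08 and 2.6e-07, edgeR). C9orf16 had -2.14 ± 0.31, with 6.8 and 8.3 CPM in labelled captures, 36.4 and 31.4 CPM in no-probe captures and 31.7 and 34.7 CPM in inputs. TECR, the enzyme of the last step in very-long-chain fatty acid elongation, had 14.6 and 17.8 CPM in labelled captures, 78.9 and 81.5 CPM in no-probe captures and 57.3 and 69.4 CPM in inputs.

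PGLS of the pentose phosphate pathway, PPDPF, RPS15, RPL41, RPS29 and RPL38 fell by 1.86 to 1.95 on the log2 scale. RPL41, the smallest ribosomal protein, had 101.6 and 115.7 CPM in labelled captures, 426.4 and 438.4 CPM in no-probe captures and 412.6 and 420.9 CPM in inputs, so the replicates of each group lay close together. The lowest of the 12, MTRNR2L12, had a log2 difference of -3.07 ± 0.26 and is a nuclear near-copy of the mitochondrial MT-RNR2, so its reads may be those of the mitochondrial RNA. Ribosomal protein genes and FTL have many processed pseudogenes, and how the counting split reads among copies is not given in the sources used here.

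Of 1055 tested long noncoding RNAs 38 rose and 65 fell, 3.60% and 6.16% against 19.4% and 16.4% of all tested genes, with a median of -0.09 that is 0.55 with total counts. NORAD, which holds many sites for the Pumilio proteins, had 458.0 and 379.2 CPM in labelled captures, 97.1 and 86.6 CPM in no-probe captures and 127.4 and 119.0 CPM in inputs. It was the most abundant of the 4 highest, and its log2 difference of 1.76 ± 0.21 (adjusted p = 1.5e-07, edgeR) was past the spread between replicates in each group. HCG11 had 24.4 and 18.3 CPM in labelled captures, 4.4 and 8.1 CPM in no-probe captures and 6.2 and 5.0 CPM in inputs (log2 1.93 ± 0.40). AC125257.1 rose by 1.51 ± 0.23, and SOX21-AS1, antisense to the neural factor SOX21, had 1.41 ± 0.36 and was not called without input 2 (adjusted p = 0.069). The 4 lowest were FP671120.1 (-3.00 ± 0.38), AC084082.1 (-2.94 ± 0.47), FP671120.4 (-2.0 ± 0.45) and FP236383.2 (-1.80 ± 0.41). FP671120.4 was not called without input 2, at -1.23 and an adjusted p of 0.065. FP671120.1, FP671120.4 and FP236383.2 lie on chromosome 21. Whether they share near-identical stretches with each other or with other genes was not tested, so their values are uncertain. The span of FP671120.1 overlaps other annotated genes, among them the ribosomal RNA gene RNA5-8SN2, and that of FP236383.2 overlaps FP236383.1. How far reads of those genes entered these values was not tested.

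**Figure D1:**
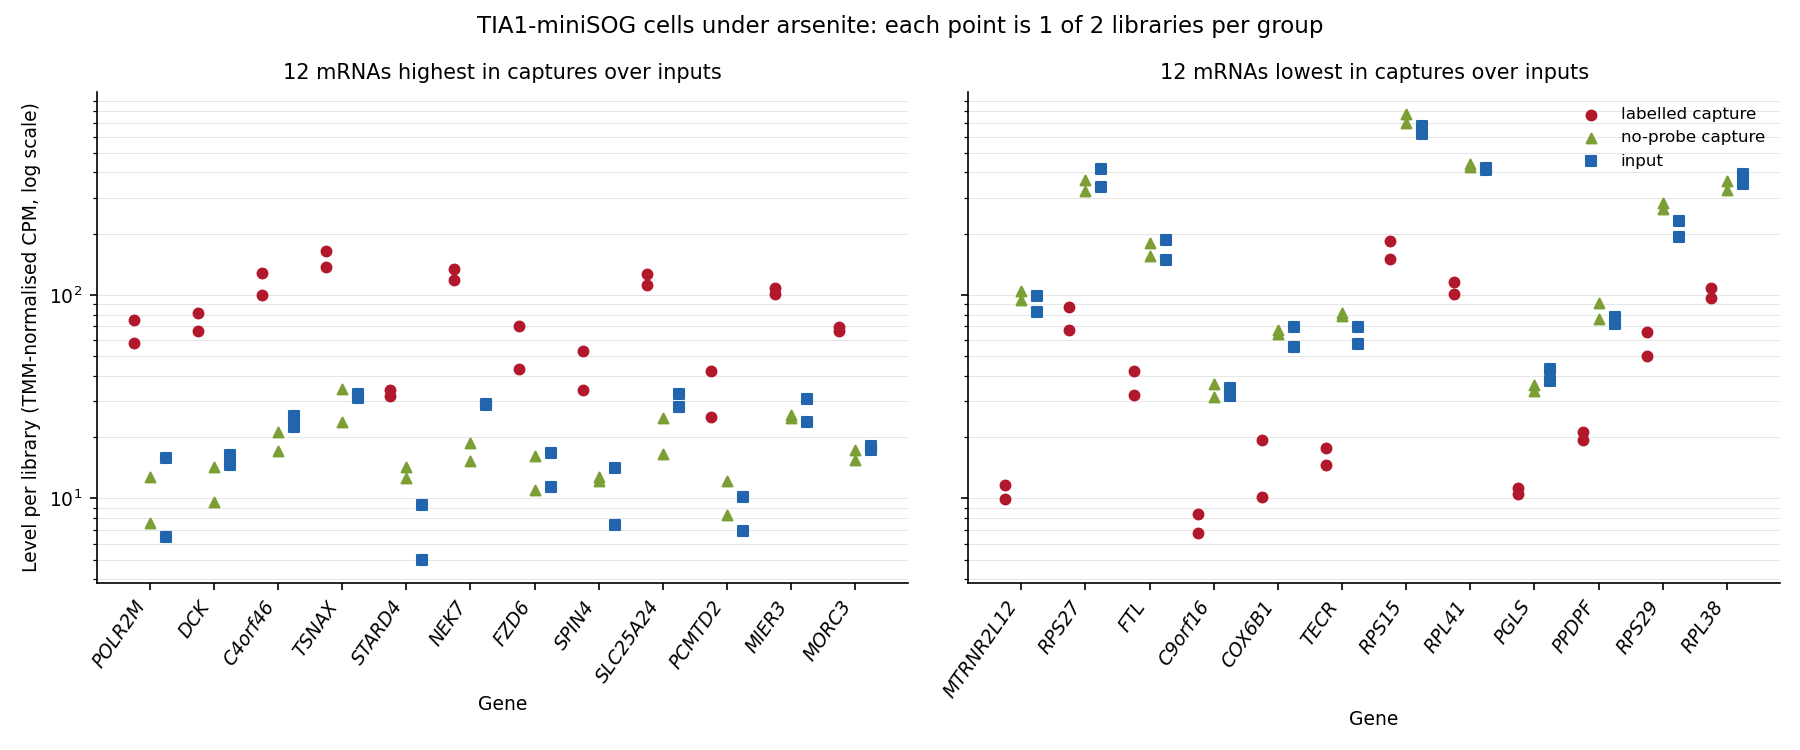
Level of the 12 highest mRNAs (left) and the 12 lowest mRNAs (right) in each library, in CPM on a log axis, with labelled captures left of no-probe captures and inputs for each gene on the x axis. Each point is 1 library. For the mRNAs that rose, such as TSNAX at 165.2 and 136.8 CPM, the labelled captures sit above the other 4 libraries, and for those that fell, such as RPS27 at 67.5 and 87.3 CPM, below them. The rule for naming these mRNAs required this separation.

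Across mRNAs, those that rose were U-rich, poor in G and C and long in the 3′UTR. Features were read from 1 transcript per gene, described over up to 12320 protein-coding genes with no test, since genes of 1 library share its depth and base composition. Higher mRNAs had a median GC of 40.8% and a median 3′UTR of 2518.5 bases, lower mRNAs 58.7% and 561 bases, and all tested mRNAs 48.6% and 1370 bases. The U share of the whole transcript had medians of 29.5%, 20.4% and 25.1% in those 3 sets. Spearman's rho across genes between the log2 difference of capture over input and the feature was 0.66 for the U share of the transcript, 0.63 for that of the 3′UTR and -0.67 for GC. For 3′UTR length rho was 0.44, for transcript length 0.39 and for coding length 0.14. Runs of 5 or more U per kb of 3′UTR gave 0.53, and AUUUA, the core of AU-rich elements, counted per kb, gave 0.50. The same features ran the other way in the no-probe captures over inputs, with rho of -0.39 for U share, 0.43 for GC and -0.26 for 3′UTR length. These 2 comparisons share the inputs. In the 10% of mRNAs with the least U (median 16.9%) the median log2 difference was -0.74, and 6 of 1232 rose while 560 fell. In the 10% with the most U (median 32.1%) it was 0.89, with 856 higher and 16 lower. The no-probe captures had medians of 0.24 and -0.20 in those same bins.

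GC gave a mirror image, from 0.84 in the bin with the lowest GC (791 higher, 7 lower) to -0.75 in the bin with the highest (4 higher, 557 lower). For 3′UTR length the bins ran from -0.59 (33 higher, 458 lower, median 134 bases) to 0.44 (490 higher, 36 lower, median 6239.5 bases). For AUUUA the medians were not highest at the top: the 2 bins with a median of 0 per kb had -0.59 and -0.54, those at 4.07 per kb had 0.55, and those at 6.0 per kb had 0.44. Runs of U were similar, with -0.70 and -0.57 in the 2 bins with a median of 0, 0.55 at 6.46 per kb and 0.49 at 8.77 per kb. The 12 highest mRNAs had 29.5% to 36.3% U and 34.2% to 39.3% GC, and 3′UTRs of 1350 to 3853 bases. The 12 lowest had 15.1% to 28.7% U and 40.5% to 68.2% GC, with 3′UTRs of 11 to 6828 bases. The transcript chosen sets these lengths, and for RPS29 it was 1 of 7062 bases, which is much longer than the common message.

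**Figure D2:**
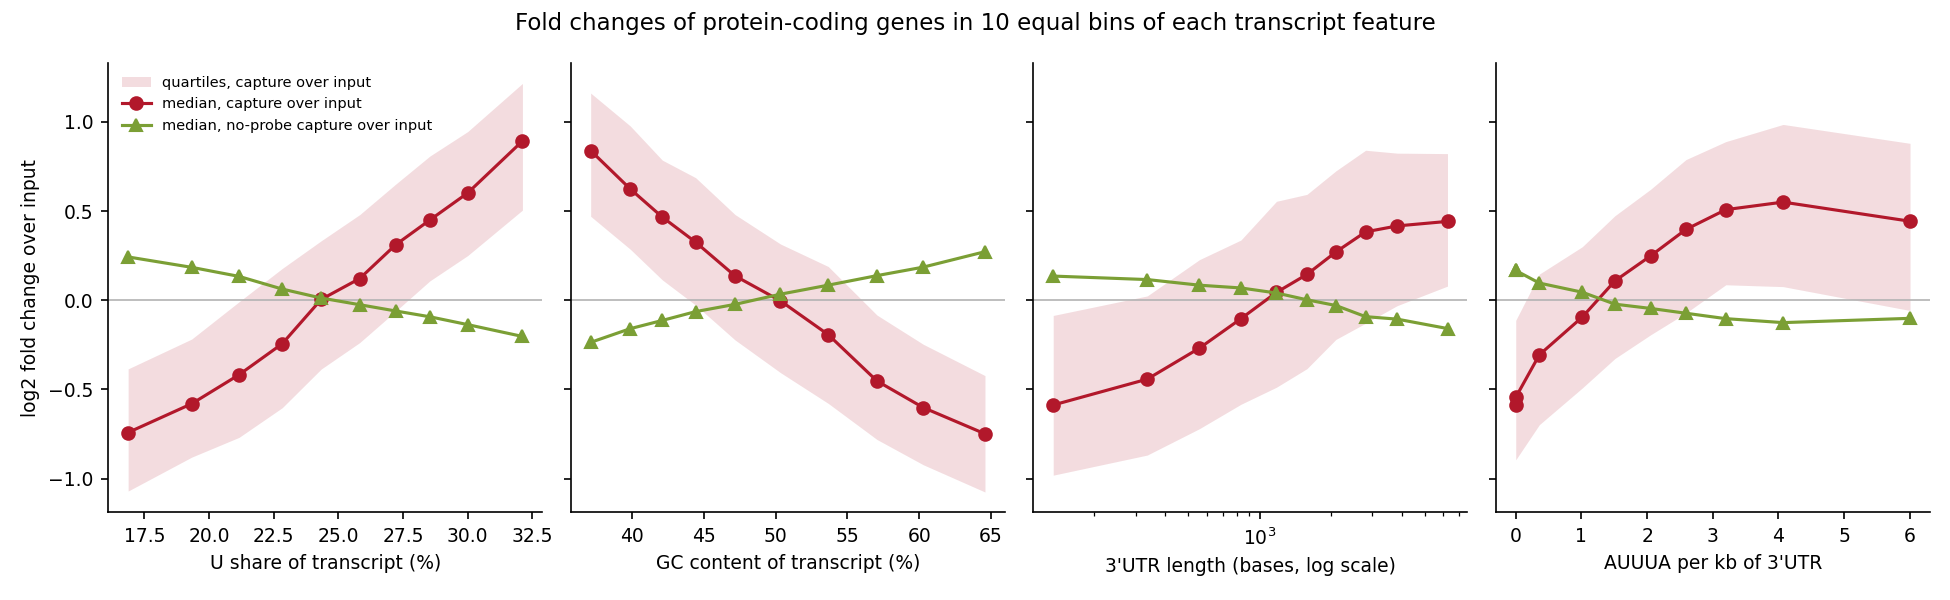
Log2 fold change over input (y axis) in 10 equal bins of U share, GC content, 3′UTR length and AUUUA per kb (x axes, bin medians, length on a log axis) over protein-coding genes. Circles are medians for labelled captures with their quartiles shaded, and triangles are medians for no-probe captures. Labelled captures climb from -0.74 to 0.89 with U share and drop from 0.84 to -0.75 with GC, while no-probe captures run the other way over a narrower range.

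Length and U share moved together across genes, and each was also read within classes of the other. Among the shortest transcripts, those with the most U had a median of 0.26 (210 of 811 higher, 69 lower), and those with the least U had -0.71 (17 of 1946 higher, 833 lower). Among the longest transcripts, those with the most U had a median of 0.70 (1143 of 1939 higher, 12 lower), and those with the least U had -0.37 (15 of 817 higher, 201 lower). With total counts, long U-poor transcripts had a median of 0.29 and short U-poor ones -0.05. Thus 58.9% of long U-rich mRNAs rose, against 1.84% of long U-poor ones, and 25.9% of short U-rich mRNAs rose, against 0.874% of short U-poor ones. The mRNAs were also put in 10 bins by their level in the inputs per kb of transcript. The top bin, with 54.8 CPM per kb at its median, had a median log2 difference of -0.42. The other bins lay between -0.14 and 0.24. The inputs enter both the bins and the log2 difference, and division by length places short transcripts higher. The top bin had a median length of 2061.5 bases. The part of the shared inputs and of length in these values was not tested. After a loess fit on length and GC was subtracted, the log2 difference of TIA1 was 0.10, that of DCK 1.74 and that of NORAD 1.19.

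**Figure D3:**
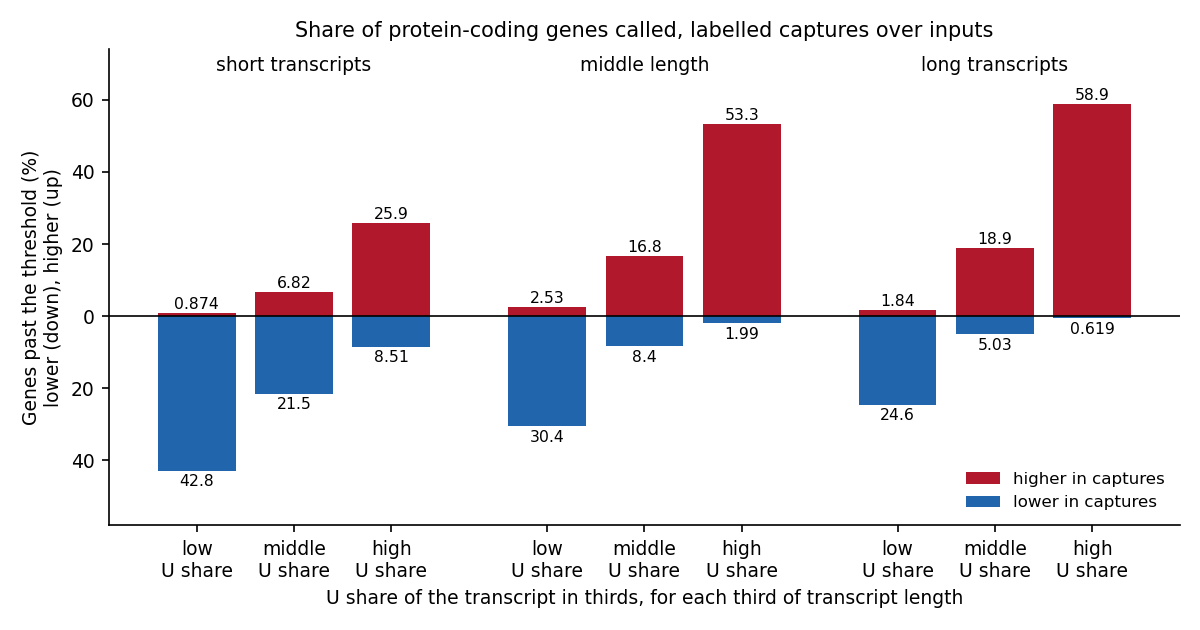
Percent of protein-coding genes called higher (bars up) or lower (bars down) in labelled captures than in inputs, for classes of U share within classes of transcript length on the x axis. Among long transcripts rich in U 58.9% rose, and among short transcripts with little U 0.874% rose and 42.8% fell.

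Gene lists were read by the number of tested members called and by the median log2 difference, beside 22.1% higher and 16.4% lower among protein-coding genes. Each count of members higher or lower than inputs was also taken without each of the 6 libraries in turn. Where it moved by over 1.5 times the libraries are named. Counts of members that differed between baits were not taken in this way. Proteins that bind U-rich and AU-rich elements, the family to which TIA1 belongs, had 19 of 30 tested mRNAs higher and 2 lower (1 lower without each of the 6 in turn). Their median was 0.61, and 0.28 with the length and GC trend removed. ELAVL2, a neuronal Hu protein that stabilises such mRNAs, had 49.2 and 36.7 CPM in labelled captures, 9.4 and 17.7 CPM in no-probe captures and 8.4 and 14.4 CPM in inputs. FUBP1, a single-strand binding activator of MYC, had 306.6 and 303.8 CPM in labelled captures, 140.7 and 143.3 CPM in no-probe captures and 117.3 and 125.9 CPM in inputs. Captures of both lay above every other library, with log2 differences of 1.93 ± 0.26 for ELAVL2 and 1.33 ± 0.20 for FUBP1. HNRNPC, which binds U runs in introns, rose by 0.65 ± 0.17, and with the length and GC trend removed its value was -0.03. RALY, its relative, was called lower at -0.78. Median differences for the list were 0.19 in G3BP2 captures and 0.19 in DDX6 captures. TIA1 exceeded G3BP2 for 4 members and DDX6 for 2 by the test of the difference, beside 2.28% and 1.51% of all tested genes. For other lists the medians in G3BP2 and DDX6 captures were 0.70 and 0.62 for cohesin and condensin, 0.68 and 0.70 for mismatch repair, and 0.48 and 0.29 for m6A proteins.

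Of 12 mRNAs described elsewhere as bound by TIA1 or its relative TIAR, 9 were tested and 4 rose, with a median of 0.59. Without capture 1 or without input 2 the count was 2. With the length and GC trend removed the median of these mRNAs was 0.16. TNF, MMP13 and CXCL8 did not pass the filter on low counts. MYC, the growth-driving transcription factor, had 250.6 and 221.7 CPM in labelled captures, 128.5 and 97.7 CPM in no-probe captures and 93.0 and 98.2 CPM in inputs. HIF1A, the oxygen-regulated transcription factor, had 81.2 and 83.0 CPM in labelled captures, 41.9 and 47.6 CPM in no-probe captures and 45.0 and 38.2 CPM in inputs. The captures of both lay above all other libraries, with log2 differences of 1.31 ± 0.19 and 0.98 ± 0.18. PTGS2, cyclooxygenase-2, was near the floor with 6.1 and 3.9 CPM in labelled captures, 1.7 and 1.5 CPM in no-probe captures and 0.9 and 1.0 CPM in inputs, and was not called without capture 1, input 1 or input 2. ACTB, a long-known TIA1 or TIAR target, had -0.44 and was not called (adjusted p = 0.14, edgeR). No member differed from G3BP2 or DDX6 captures by the test of the difference.

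Among factors that act on RNA, proteins that write, read or erase m6A had 10 of 19 higher and 0 lower (5 higher without input 1). Their median was 0.46, and 0.17 with the length and GC trend removed. YTHDF3, a cytoplasmic reader of the mark, had 140.1 and 124.7 CPM in labelled captures, 49.6 and 53.2 CPM in no-probe captures and 52.9 and 61.0 CPM in inputs, and YTHDC2 and WTAP rose by 1.21 and 1.09. Splicing factors of the SR and hnRNP families had 13 of 33 higher and 3 lower (1 lower without each of the 6 in turn). Their median was 0.33, and -0.06 with the length and GC trend removed. HNRNPF, HNRNPH2 and SRSF8 rose by 1.12, 1.09 and 1.08, and SRRM2, a large scaffold of nuclear speckles, fell by 1.29 with 207.7 and 266.2 CPM in labelled captures, 632.7 and 597.9 CPM in no-probe captures and 538.2 and 616.7 CPM in inputs. SRRM2 had 9353 bases of transcript, which is long, and 56.2% GC. MicroRNA machinery had 7 of 18 higher and 3 lower (0 lower without capture 1, 1 without input 1). Its median was 0.10, and -0.06 with the length and GC trend removed. LIN28B, a blocker of let-7 maturation, rose by 0.93 and DICER1 by 0.92. Nonsense-mediated decay factors had 3 of 18 higher and 3 lower, with a median of 0.28 that is 0.02 with that trend removed. Their higher count was 0 without input 1 and 1 without capture 1 or input 2, and their lower count was 1 without capture 1 or input 2. The list of the RNA exosome, its cofactors and the 5′ exonucleases XRN1 and XRN2 had 3 of 19 higher and 4 lower. EXOSC6 and DIS3 of the exosome rose by 0.84 and 0.76, and XRN1 by 0.84. EXOSC5 and EXOSC1 of the exosome fell by 0.81 and 0.69. The lower count was 0 without input 2, 1 without capture 1 and 2 without capture 2 or input 1. Sm and LSm proteins, the rings of spliceosomal RNAs, had 1 of 21 higher and 8 lower, with a median of -0.37 that is 0.28 with total counts. SNRPC and LSM3 fell by 1.32 and 1.31. Without capture 1, capture 2, input 1 or input 2 none was called higher, and without capture 1 and input 2 in turn 5 and 4 were lower. RNA polymerase subunits had 5 of 27 higher and 6 lower. POLR2B, the second largest subunit of polymerase II, rose by 1.02, and POLR2L, a small subunit shared by the polymerases, fell by 1.85 with 9.3 and 10.9 CPM in labelled captures, 48.5 and 46.6 CPM in no-probe captures and 33.1 and 39.7 CPM in inputs. Without capture 1 the counts were 2 higher and 3 lower, and without input 2 the lower count was 3.

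Among lists of protein making and destruction, those of mitochondrial ribosomes, the proteasome, tRNA synthetases and selenoproteins had more members lower than higher. With total counts this turned round in all 4, to 21 higher and 6 lower, 7 and 3, 9 and 0, and 8 and 2 in that order. Mitochondrial ribosomal proteins had 5 of 73 higher and 29 lower, with a median of -0.48 that is 0.17 with total counts. MRPL12 and MRPL55 fell by 1.61 and 1.53, and MRPL50 rose by 1.17 with 34.7 and 28.0 CPM in labelled captures, 17.7 and 12.7 CPM in no-probe captures and 16.3 and 11.4 CPM in inputs. Higher members were 3 without capture 1 or input 1, and lower members were 19 without capture 1, 19 without input 1 and 17 without input 2. Proteasome subunits had 3 of 43 higher and 17 lower, with a median of -0.33 that is 0.32 with total counts. PSMC5, an ATPase of the cap, fell by 1.14 and PSMD10, an assembly chaperone, rose by 0.95. Lower members were 10 without capture 1 and 7 without input 2, and higher members 1 without capture 2 or input 1. Cytosolic aminoacyl-tRNA synthetases, which charge tRNAs, had 3 of 23 higher and 10 lower (1 and 4 without input 1), with a median of -0.47 that is 0.19 with total counts. EPRS had 726.8 and 628.9 CPM in labelled captures, 340.9 and 391.9 CPM in no-probe captures and 439.9 and 368.9 CPM in inputs, and rose by 0.74, while QARS fell by 0.93. TIA1 lay below G3BP2 for 4 of the 23 synthetases tested, beside 1.33% of all tested genes. The CCT chaperonin and prefoldin, which fold actin and tubulin, had 2 of 15 higher (PFDN2 0.88, URI1 0.59) and 2 lower (1 without capture 2), among them PFDN5 at -1.09. Ubiquitin-conjugating enzymes had 13 of 34 higher and 4 lower (2 lower without input 1 or input 2). UBE2B and UBE2W rose by 1.41 and 1.39, and UBE2S of the anaphase-promoting complex and UBE2M of the NEDD8 pathway fell by 1.23 and 0.99. Selenoproteins, whose mRNAs carry a stem-loop in the 3′UTR that recodes UGA, had 4 of 20 higher and 7 lower. Their median was -0.41, 0.24 with total counts and 0.05 with the length and GC trend removed. GPX1 and GPX4, glutathione peroxidases, and SELENOM fell by 1.55, 1.27 and 1.19. SELENOI and TXNRD1 rose by 1.57 and 1.14. Without capture 1 the higher members were 2, and without input 1 the lower members were 4.

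**Figure D4:**
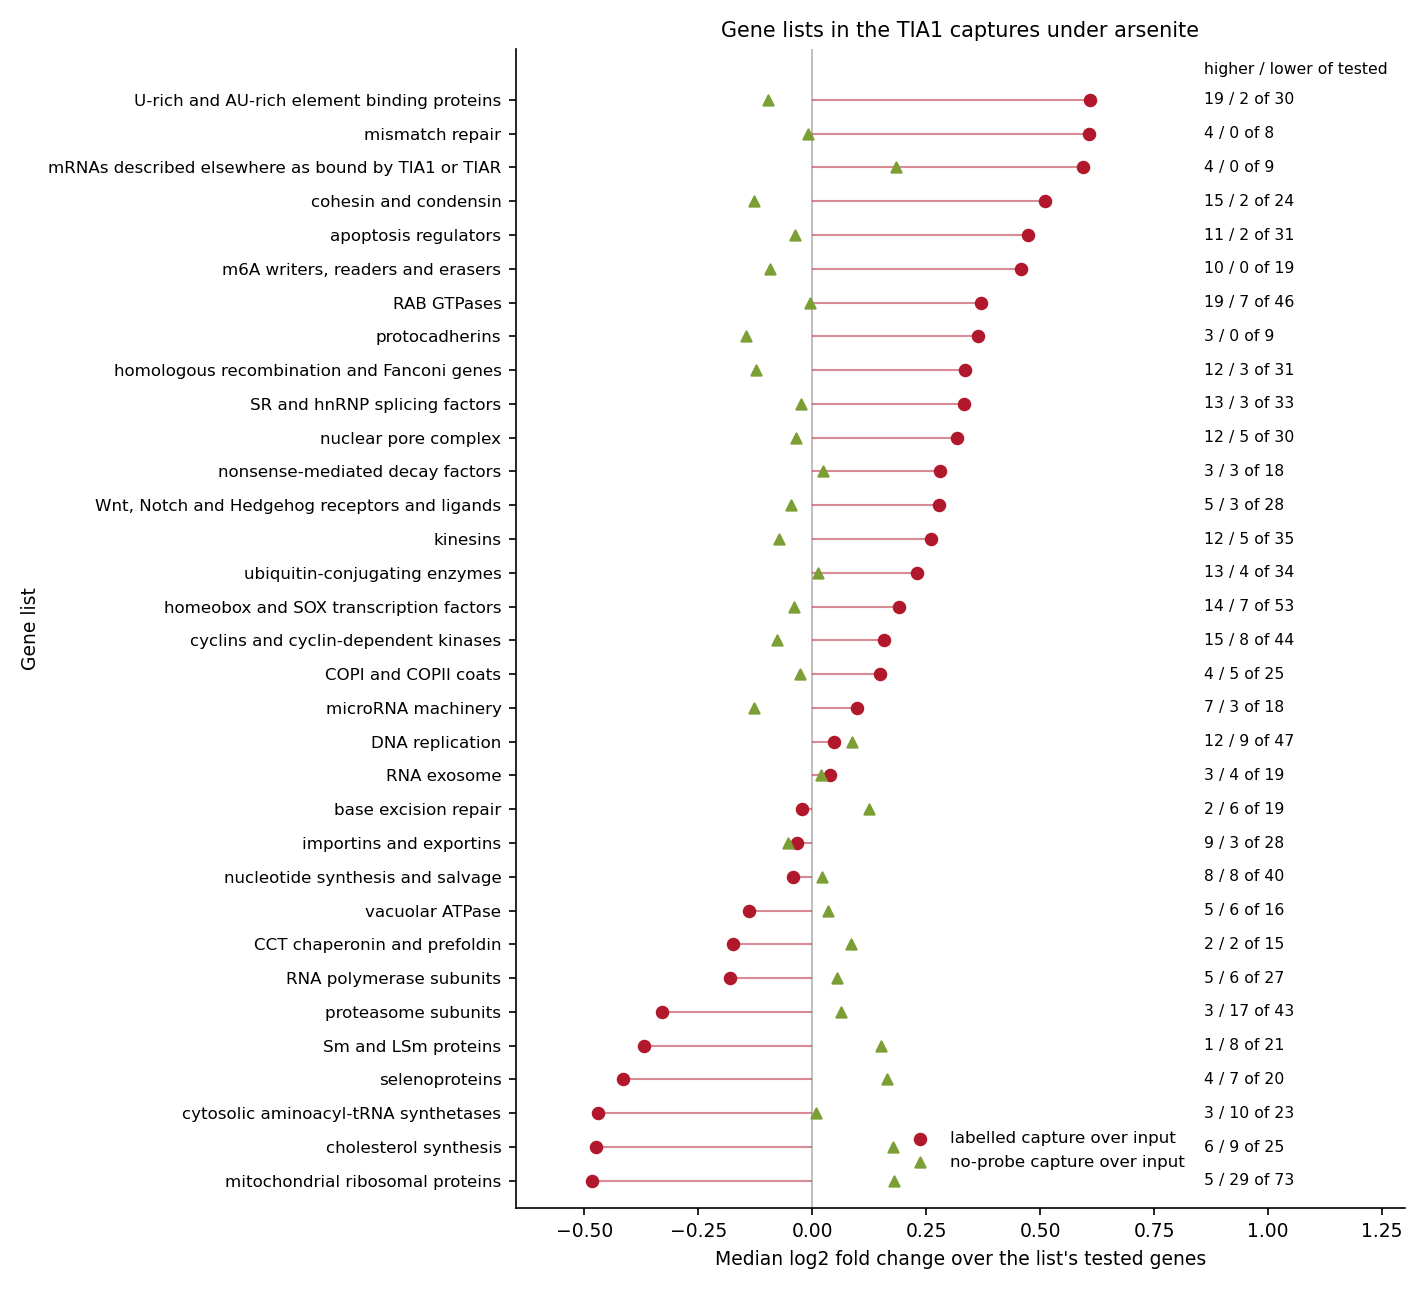
Median log2 fold change over the tested members of each gene list (x axis), 1 row per list, with circles for labelled captures over inputs and triangles for no-probe captures over inputs. The numbers at the right are members called higher and lower of those tested. The lists of cell markers are not drawn. Among the 33 lists drawn, labelled captures run from 0.61 for U-rich element binding proteins to -0.48 for mitochondrial ribosomal proteins.

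Lists of chromosomes and DNA differed in direction. Cohesin and condensin, the rings that hold and fold chromatids, had 15 of 24 higher and 2 lower. Their median was 0.51, and 0.20 with the length and GC trend removed. The 2 lower members were not called without capture 1, capture 2, input 1 or input 2, and 1 was called without either no-probe capture. PDS5B, SMCHD1 and WAPL rose by 1.24, 1.21 and 1.15. PDS5B had 126.4 and 128.6 CPM in labelled captures, 44.1 and 38.5 CPM in no-probe captures and 50.7 and 57.0 CPM in inputs. Mismatch repair had 4 of 8 higher and 0 lower (2 higher without capture 1 or input 2). Its median was 0.61, and 0.18 with the length and GC trend removed. MSH6, which recognises single mismatches, had 318.1 and 334.7 CPM in labelled captures, 168.8 and 167.1 CPM in no-probe captures and 141.1 and 181.0 CPM in inputs. Homologous recombination and Fanconi genes had 12 of 31 higher and 3 lower. Their median was 0.34, and -0.004 with the length and GC trend removed. NBN, BARD1 and RAD51AP1 rose by 1.67, 1.49 and 1.47. NBN had 157.6 and 142.2 CPM in labelled captures, 38.1 and 42.5 CPM in no-probe captures and 43.2 and 51.1 CPM in inputs. Without input 1 the higher members were 7, and without capture 1 or input 2 none was called lower. Base excision repair had 2 of 19 higher and 6 lower. TDG, a glycosylase of T and U mispairs, rose by 1.63 and NTHL1, a glycosylase of oxidised pyrimidines, fell by 1.27. Lower members were 2 without capture 1, input 1 or input 2 and 3 without capture 2, and 1 was higher without capture 1. DNA replication had 12 of 47 higher and 9 lower (5 higher without input 1, 3 lower without capture 1 or input 2). GINS1 of the replicative helicase rose by 1.65 and the loading factor CDT1 fell by 1.19. Nucleotide synthesis and salvage had 8 of 40 higher and 8 lower (4 lower without capture 1 or input 2). RRM2B, a small subunit of ribonucleotide reductase, rose by 1.84 and APRT, which salvages adenine, fell by 1.82. Cyclins and cyclin-dependent kinases had 15 of 44 higher and 8 lower. Their median was 0.16, and -0.005 with the length and GC trend removed. CCNG2, CCNT2 and the inhibitor CDKN1B rose by 1.49, 1.41 and 1.33, and CDK18 and CDK16 fell by 1.28 and 0.84. Lower members were 4 without capture 1 or input 2 and 5 without capture 2. TIA1 exceeded G3BP2 for 6 of the 44 members tested and lay below it for 1, beside 2.28% and 1.33% of all tested genes.

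Lists of transport and membranes were mixed. The nuclear pore had 12 of 30 higher and 5 lower, with a median of 0.32 that is 0.03 with the length and GC trend removed. NUP58, SEH1L and NUP50 rose by 1.17, 1.17 and 1.10, and AAAS and NUP214 fell by 1.10 and 1.01. Importins and exportins had 9 of 28 higher and 3 lower (1 lower without capture 1 or input 2). Their median was -0.03, 0.62 with total counts and -0.21 with the length and GC trend removed. TNPO1, the carrier of many hnRNP proteins, had 546.2 and 517.7 CPM in labelled captures, 126.3 and 173.7 CPM in no-probe captures and 217.8 and 230.5 CPM in inputs. Its no-probe captures lay under its inputs, and the labelled captures were higher than both by log2 1.25 to input. Kinesins had 12 of 35 higher and 5 lower, with a median of 0.26. KIF3A, KIF21A and KIF5B rose by 1.58, 1.39 and 1.08. Lower members were 1 without capture 1 or input 2, 2 without input 1 and 3 without capture 2 or either no-probe capture. RAB GTPases, switches of vesicle traffic, had 19 of 46 higher and 7 lower, with a median of 0.37. RAB8B and RAB18 rose by 1.44 and 1.34 and RAB13 fell by 1.25. Higher members were 12 without capture 1 and 10 without input 1, and lower members 3 without capture 1 or input 2 and 4 without input 1. COPI and COPII coats had 4 of 25 higher and 5 lower (1 lower without capture 1 or input 2). SEC23A, a subunit of the inner COPII coat, had 253.6 and 233.0 CPM in labelled captures, 52.4 and 72.4 CPM in no-probe captures and 77.1 and 69.4 CPM in inputs, and rose by 1.73. The vacuolar ATPase, which acidifies lysosomes, had 5 of 16 higher and 6 lower (3 and 3 without input 1), with a median of -0.14 that is 0.52 with total counts. ATP6V1G1, ATP6AP2 and ATP6V1A rose by 1.32, 1.24 and 1.12, and ATP6V1F and ATP6AP1 fell by 1.26 and 1.13. Cholesterol synthesis had 6 of 25 higher and 9 lower, with a median of -0.47 that is 0.18 with total counts (5 lower without capture 1, 4 without input 2). INSIG1, the sterol-regulated anchor of the pathway's transcription factor, and SQLE, which oxidises squalene, rose by 1.24 and 1.06, and TM7SF2, MVD and PMVK fell by 1.45, 1.23 and 1.16.

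Among signalling and developmental genes, apoptosis regulators had 11 of 31 higher and 2 lower, with a median of 0.47. XIAP, an inhibitor of caspases, had 142.2 and 98.2 CPM in labelled captures, 24.3 and 28.4 CPM in no-probe captures and 35.3 and 31.2 CPM in inputs, a log2 difference of 1.85 ± 0.22. PMAIP1, CASP8 and MCL1 rose by 1.41, 1.34 and 0.69. Higher members were 6 without capture 1 and 7 without input 2, and lower members 0 without either of those and 1 without input 1. Wnt, Notch and Hedgehog receptors and ligands had 5 of 28 higher and 3 lower (1 lower without capture 1 or input 2), with a median of 0.28. FZD6 and WNT5A rose by 2.00 and 1.15, and LRP5 fell by 0.94. Homeobox and SOX transcription factors had 14 of 53 higher and 7 lower, with a median of 0.19. HOXA13 had 43.3 and 46 CPM in labelled captures, 10.5 and 18.2 CPM in no-probe captures and 15.0 and 17.8 CPM in inputs, and rose by 1.44. Higher members were 9 without input 2, and lower members were 2 without capture 1, 4 without capture 2, 1 without input 1 and 3 without input 2. TIA1 exceeded DDX6 for 5 of the 53 members tested, beside 1.51% of all tested genes. Of 28 protocadherins 9 were tested, and PCDH18, PCDH7 and PCDH9 rose by 1.72, 0.78 and 0.77. With the length and GC trend removed PCDH9 was at -0.08. Among the HEK293T markers LIN28B was called higher and NEFM, a neurofilament, lower at -1.22. The kinesins that rose had a median GC of 38.7% and those that fell 61.3%, and for RAB GTPases the medians were 38.9% and 60.5%. For SR and hnRNP factors they were close, at 42.1% and 43.0%. The 3′UTRs of kinesins ran against the trend over all mRNAs, with medians of 1043 bases for those that rose and 1691 for those that fell.

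TIA1 captures over their inputs were also set against those of the other 2 arsenite baits, each against its own inputs. G3BP2 helps to build stress granules. DDX6, a helicase, belongs to P-bodies, which hold repressed and decaying mRNAs. TIA1 exceeded G3BP2 for 327 genes, 2.28% of those tested, and lay below it for 191, 1.33%. TIA1 exceeded DDX6 for 217 genes, 1.51%, and lay below it for 121, 0.843%. These counts moved with single TIA1 libraries. For G3BP2 they were 104 and 23 without capture 1, 192 and 115 without capture 2, 126 and 59 without input 1, and 130 and 23 without input 2. For DDX6 they were 84 and 39 without capture 1, 105 and 40 without capture 2, 75 and 21 without input 1, and 84 and 23 without input 2. Without either no-probe capture, 78 lay below DDX6. CCNL1, cyclin L1 of nuclear speckles, had 257.6 and 266.5 CPM in TIA1 captures against 170.6 and 167.1 CPM in TIA1 inputs, and 82.0 and 78.5 CPM in G3BP2 captures against 245.0 and 249.1 CPM in G3BP2 inputs. In DDX6 cells it had 84.6 and 113.0 CPM in captures against 187.1 and 273.2 CPM in inputs. It was thus higher than input with TIA1 and lower with both other baits, and its difference was 2.25 ± 0.26 to G3BP2 and 1.86 ± 0.26 to DDX6 (adjusted p 2.3e-06 for G3BP2, edgeR). With the length and GC trend removed its TIA1 value was -0.27. ANKRD10 had 73.4 and 69.0 CPM in TIA1 captures against 37.0 and 25.3 CPM in TIA1 inputs, and 28.6 and 25.6 CPM in G3BP2 captures against 48.5 and 47.3 CPM in G3BP2 inputs. Its differences were 2.00 ± 0.31 to G3BP2 and 1.80 ± 0.31 to DDX6.

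RSRP1 was at 39.1 and 44.3 CPM in TIA1 captures against 32.6 and 39.2 CPM in TIA1 inputs, which was no call, and at 14.9 and 8.6 CPM in DDX6 captures against 49.2 and 37.2 CPM in DDX6 inputs. FOSB, an early response transcription factor, fell with both of these baits, by 0.85 with TIA1, a call lost without capture 2 or input 1, and by 2.87 with DDX6. RPL22L1, a paralog of ribosomal protein L22, had 32 and 31.1 CPM in TIA1 captures against 56.9 and 46.1 CPM in TIA1 inputs, and 144.0 and 161.9 CPM in DDX6 captures against 50.7 and 44.7 CPM in DDX6 inputs. It was thus lower than input with TIA1 and higher with DDX6, a difference of -2.39 ± 0.24. Without input 1 the TIA1 value of RPL22L1 alone was not called (adjusted p = 0.109, edgeR). SLIRP, an RNA-binding protein of mitochondria, had 12.3 and 10.0 CPM in TIA1 captures against 40.1 and 36.7 CPM in TIA1 inputs, and 36.0 and 42.9 CPM in DDX6 captures against 36.4 and 36.6 CPM in DDX6 inputs, a difference of -1.88 ± 0.33. Across genes, rho between the log2 difference and U share was 0.66 for TIA1, 0.38 for G3BP2 and 0.58 for DDX6. For 3′UTR length rho was 0.44 for TIA1, 0.34 for G3BP2 and 0.27 for DDX6, and the differences between these values were not tested.

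**Figure D5:**
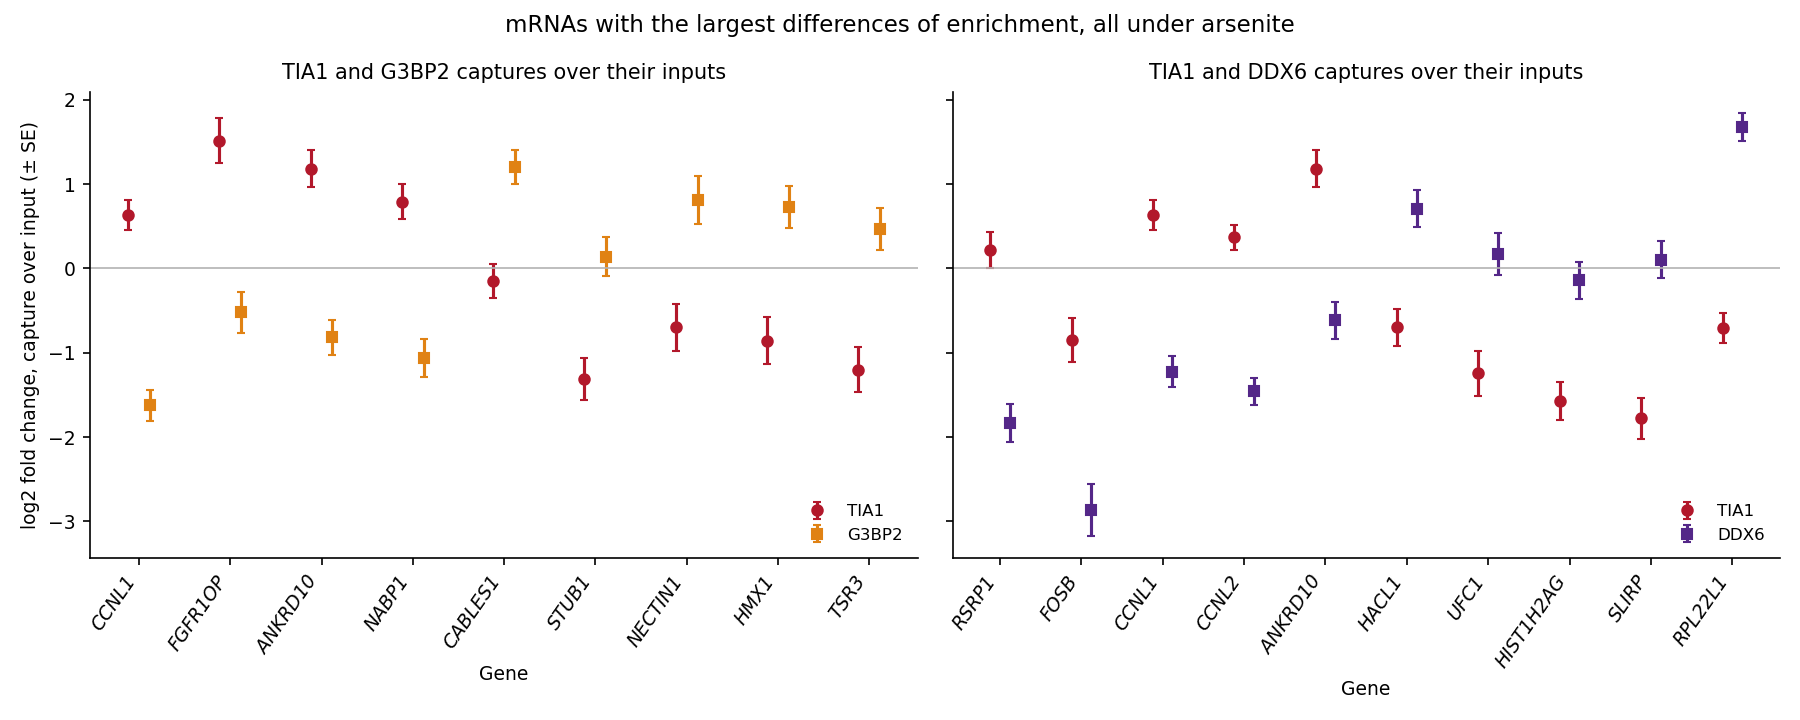
Log2 fold change of capture over input with its SE (y axis) for the mRNAs named for a difference between TIA1 and G3BP2 (left) and between TIA1 and DDX6 (right), all under arsenite, with TIA1 as circles and the other bait as squares. CCNL1 lies at 0.63 with TIA1, -1.62 with G3BP2 and -1.23 with DDX6, and RPL22L1 at -0.71 with TIA1 and 1.68 with DDX6.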

How the data were processed

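Whole-number gene counts were deposited by the authors as 1 table of 24 libraries. Per the submitters' processing notes, reads were handled with cutadapt 1.18, FastQC 0.11.8, HISAT2 2.1.0, SAMtools and HTSeq 0.7.2 on GRCh38. The strand setting of the counting is not given in the sources used here. The 57992 gene IDs are of Ensembl 87 per the file headers, and 57388 matched GENCODE 29, which gave gene type, transcript features and the printed bases. Genes kept by filterByExpr (14360) were fitted with edgeR 4.0.16 in R 4.3.3 (TMM scaling, 1 coefficient for each of 12 groups over all 24 libraries, 12 residual degrees of freedom, quasi-likelihood F-test, Benjamini-Hochberg). Differences between baits were contrasts in that model. DESeq2 1.42.0 was an alternative. The fit was tested on simulated data. The members and gene lists were chosen with earlier results of these data known. Named genes followed the rule in the report. For long noncoding RNAs these were the 4 highest and 4 lowest, for bait differences the 5 highest and 5 lowest, less 1 that is not reported here, and list examples were taken from each list's extremes and most abundant members. RNU1-27P and RNU6-36P were named after their values were seen, as the 2 genes called between no-probe captures and inputs. The reading by length within U share and by level was added after seeing the data. Features came from the longest transcript of each gene.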

Additional observations from a re-analysis of the deposited data

Results flagged for a closer look

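The log2 difference of capture over input differed between TIA1 and G3BP2 by the test of the difference itself (edgeR, adjusted p under 0.05) for the 9 mRNAs given here. TIA1 was the higher bait for CCNL1 (2.25 ± 0.26), FGFR1OP (2.03 ± 0.36), ANKRD10 (2.00 ± 0.31) and NABP1 (1.86 ± 0.31). FGFR1OP, a centriolar protein, rose by 1.52 with TIA1 and had -0.52 with G3BP2. NABP1, a single-strand DNA-binding protein, rose by 0.79 with TIA1, a call lost without capture 1, and fell by 1.07 with G3BP2. TIA1 was the lower bait for TSR3 (-1.67 ± 0.37), HMX1 (-1.59 ± 0.37), NECTIN1 (-1.51 ± 0.40), STUB1 (-1.45 ± 0.34) and CABLES1 (-1.36 ± 0.29). STUB1, a ubiquitin ligase that works with chaperones, had -1.31 with TIA1 and 0.14 with G3BP2. CABLES1, a partner of cyclin-dependent kinases, had -0.15 with TIA1 and 1.21 with G3BP2, with 34.2 and 33.2 CPM in TIA1 captures against 35.3 and 39.7 CPM in TIA1 inputs, and 60.0 and 58.0 CPM in G3BP2 captures against 20.4 and 31.2 CPM in G3BP2 inputs. These 5 lower differences each missed the threshold without some TIA1 library: TSR3 without capture 1 or input 1, HMX1 without capture 2 or input 2, NECTIN1 and STUB1 without capture 1 or input 2, and CABLES1 without input 2.

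Against DDX6 under arsenite, TIA1 was the higher bait for RSRP1 (2.05 ± 0.31), FOSB (2.02 ± 0.41), CCNL1 (1.86 ± 0.26), CCNL2 (1.83 ± 0.21) and ANKRD10 (1.80 ± 0.31). CCNL2, the paralog of CCNL1, had 0.37 with TIA1 and fell by 1.46 with DDX6. TIA1 was the lower bait for RPL22L1 (-2.39 ± 0.24), SLIRP (-1.88 ± 0.33), HIST1H2AG (-1.43 ± 0.31), UFC1 (-1.41 ± 0.36) and HACL1 (-1.41 ± 0.31). HIST1H2AG, a replication-dependent histone H2A gene with near-identical copies, had -1.57 with TIA1 and -0.14 with DDX6. UFC1, the conjugating enzyme of UFM1, had -1.24 with TIA1 and 0.17 with DDX6, and HACL1, a peroxisomal lyase, had -0.70 with TIA1 and 0.71 with DDX6. HIST1H2AG missed the threshold without input 1, UFC1 without capture 1, capture 2 or input 2, and HACL1 without capture 2 or input 1.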

How the results depend on the processing

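Depth was 2478099 to 5138758 counts with 2 libraries a group, and its effect on the calls was not tested. No cause was tested for any change below. For captures over inputs a test against a log2 fold of 1 called 94 higher and 174 lower, no low-count filter gave 1303 lower, and total counts gave 6337 higher and 529 lower. Scaling to nuclear protein-coding genes (2581 and 2543) or with DESeq2 (2316 and 2338) kept both counts within 1.5 times. Without 1 TIA1 library the counts were 1948 to 2869 and 1319 to 2132. For captures over no-probe captures the fold of 1 gave 379 and 434, no filter 1980 lower, total counts 7346 and 619, and leaving out 1 library 2574 to 3489 and 2102 to 2902. For no-probe captures over inputs DESeq2 called 1, the fold of 1 called 0, at least 50 counts 0, the libraries of the comparison alone 23 and 4, no filter 24 and 6, total counts 1 lower, and leaving out 1 library 0 to 2. For TIA1 minus G3BP2 the fold of 1 gave 10 and 0, the libraries of the comparison alone 542 and 518, total counts 49 lower, and leaving out 1 library 104 to 278 and 23 to 156. For TIA1 minus DDX6 DESeq2 gave 219 lower, the fold of 1 gave 21 and 1, the libraries alone 62 and 11, no filter 326 and 69, total counts 37 lower, and leaving out 1 library 75 to 185 and 21 to 78. With the transcript of longest coding sequence rho was 0.36 for transcript length, 0.40 for 3′UTR length, 0.51 for U runs and 0.47 for AUUUA. With the length and GC trend removed, the called genes CCNL1 (0.63, then -0.27), HNRNPC (0.65, then -0.033), HMX1 (-0.86, then 0.22) and PCDH9 (0.77, then -0.075) changed sign, as did CABLES1 (0.10) and COL1A1 (0.03), which were not called. List medians changed sign under total counts for 14 lists and with the trend removed for 9. In the last set were microRNA machinery, the RNA exosome, SR and hnRNP factors, COPI and COPII coats and selenoproteins. It also held base excision repair, homologous recombination and Fanconi genes, DNA replication, and cyclins and cyclin-dependent kinases.

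Replicate numbers are shared by the groups, but the correlation of same-numbered deviations was 0.168 for captures and inputs, 0.063 for captures and no-probe captures and 0.059 for inputs and no-probe captures, and 2 pairs cannot show pairing. With the replicate block the calls were 3183 and 2710 for captures over inputs, 3687 and 3377 for captures over no-probe captures, 3 and 2 for no-probe captures over inputs, 624 and 654 for TIA1 minus G3BP2, and 487 and 511 for TIA1 minus DDX6.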

Other observations

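Processed pseudogenes, copies of spliced messages that lie elsewhere in the genome, were mostly not called: of 367 tested, 13 were higher and 81 lower, 3.54% and 22.1% against 19.4% and 16.4% of all tested genes. Their median log2 difference was -0.40, and 0.25 with total counts.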
